A study of Mus musculus with 12 samples.

Results

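Small nucleolar RNAs and Cajal body RNAs were taken as the gene symbols that start with Snord, Snora or Scarna and a number and that averaged at least 1 TPM over the 12 libraries of the study. TPM gives each transcript as a share of the RNA of its library, corrected for transcript length. Of 24411 symbols, 119 had such a name, 74 of the C/D class (Snord), 36 of the H/ACA class (Snora) and 9 of the Cajal body class (Scarna). Only 5 reached the mean of 1 TPM. They were Snord17 in the C/D class, Snora23 and Snora74a in the H/ACA class, and Scarna13 and Scarna6 in the Cajal body class. The other 114 symbols, 73 C/D, 34 H/ACA and 7 Cajal body, were listed at exactly 0 in all 12 libraries. The member with the lowest mean, Snora74a, stood at 45.9 TPM, and the symbols outside the rule stood at 0, so no symbol lay near the limit.

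The libraries held RNA of NR5A1(+) cells, the somatic cells of the gonad that carry this nuclear receptor, from mouse fetuses with the genotype Nr5a1-hCD271, an allele that ties the human surface protein CD271 to the Nr5a1 gene. The groups were XY gonads cultured with Dfo (n = 3), XY gonads cultured as controls (n = 3), XX gonads cultured as controls (n = 2), XY gonads at E11.5 (n = 2) and XX gonads at E11.5 (n = 2). Dfo is deferoxamine, a chelator that binds iron, given at 150 µM. Per the labels, culture began at E10.8, lasted 19.2 hours, and kept the aorta, mesonephros and mesenchyme with the gonads. The labels carry this culture text on the E11.5 samples too, so how those were handled is not known from it. The titles of the E11.5 samples also read WT, and those of the cultured samples do not. Nothing in the labels says that replicates came from separate embryos, so a p-value here reflects only the spread among the deposited samples, which may be technical. In such bulk samples, fewer cells of a type and less RNA per cell cannot be told apart.

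Small nucleolar RNAs guide chemical changes of ribosomal RNA. C/D RNAs carry short C and D boxes near their ends and guide ribose methylation by the enzyme fibrillarin, and H/ACA RNAs end in an ACA box and guide the conversion of uridine to pseudouridine by dyskerin. Cajal body RNAs are built from the same domains and guide these changes in the spliceosomal RNAs. In mammals most of them are cut from the introns of host genes after splicing, so their level depends on the host transcript and on how stable the particle of RNA and core proteins is.

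The sequences of 4 members are shown because their ends carry the boxes that define the classes. They were read from the GENCODE M21 transcripts (GRCm38), 5′ to 3′. Capitals mark the C box (NTGATGA within the first 20 bases) and the D box (CTGA within the last 15 bases), or the ACA that ends 3 bases before the end. Snord17 is 238 nt long and lies at chr2:144265979-144266216 (minus strand) in an intron of Snx5, a sorting nexin gene. Snora23 is 184 nt long and lies at chr7:110046364-110046547 (plus strand) in an intron of Ipo7, a nuclear import receptor gene. Scarna13 is 275 nt long and lies at chr12:105031075-105031349 (minus strand) in an intron of Snhg10, a host RNA without a protein. Scarna6 is 265 nt long and lies at chr1:87784556-87784820 (plus strand) in an intron of Atg16l1, an autophagy gene.
Snord17: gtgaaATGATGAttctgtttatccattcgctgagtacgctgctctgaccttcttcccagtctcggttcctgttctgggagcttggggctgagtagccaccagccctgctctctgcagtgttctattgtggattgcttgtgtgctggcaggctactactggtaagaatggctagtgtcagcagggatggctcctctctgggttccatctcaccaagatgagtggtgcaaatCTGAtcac
Snora23: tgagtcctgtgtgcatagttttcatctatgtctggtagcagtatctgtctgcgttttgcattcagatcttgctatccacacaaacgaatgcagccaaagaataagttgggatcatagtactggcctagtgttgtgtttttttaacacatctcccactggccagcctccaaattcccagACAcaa
Scarna13: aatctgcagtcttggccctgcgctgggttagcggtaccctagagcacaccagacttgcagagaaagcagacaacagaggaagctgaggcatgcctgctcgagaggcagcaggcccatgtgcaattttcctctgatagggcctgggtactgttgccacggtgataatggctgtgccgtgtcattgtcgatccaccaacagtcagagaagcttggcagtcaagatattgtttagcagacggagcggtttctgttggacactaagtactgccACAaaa
Scarna6: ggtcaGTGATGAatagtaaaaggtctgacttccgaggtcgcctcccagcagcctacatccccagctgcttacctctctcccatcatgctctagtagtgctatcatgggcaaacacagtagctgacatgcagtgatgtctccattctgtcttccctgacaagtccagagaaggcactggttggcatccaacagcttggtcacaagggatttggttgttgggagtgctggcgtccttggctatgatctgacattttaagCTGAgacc

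Snord17 and Scarna6 held both a C and a D box at these places, and Snora23 and Scarna13 held the ACA. The human counterpart of Scarna13 is described as H/ACA domains in tandem, and that of Scarna6 as a composite of C/D and H/ACA domains. Only the RNA strand was searched, and the motifs do not overlap. Both boxes stood at these places in 0.171% of the 4669 M21 transcripts of 150 to 300 nt, in 60.3% of the 73 C/D sequences and in 44.4% of the 9 Cajal body sequences among the matched symbols. The ACA stood 3 bases before the end in 1.86% of the 4669 transcripts, 83.3% of the 36 H/ACA sequences and 22.2% of the 9 Cajal body sequences. Snora74a, on chromosome 18 within the span of the host RNA Snhg4 in the RefSeq table, held none of these motifs at these places. Of its 166 stretches of 31 bases, 166 also occur in a retained-intron transcript of the surrounding gene, so reads of that RNA and of this transcript cannot be told apart by sequence. Scarna13 shared 35 of its 245 stretches with the microRNA gene Mir3069, and Snord17, Snora23 and Scarna6 shared none with another annotated transcript.

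The 5 RNAs with values were longer than each of the 113 symbols at 0 that have a span in the RefSeq table (GRCm38.p6). Their spans ran between 184 nt (Snora23) and 275 nt (Scarna13), and those of the symbols listed at 0 between 28 and 164 nt, with a median of 78 nt. The longest symbol listed at 0 was the H/ACA RNA Snora81, at 164 nt. The same edge ran through the whole table. Of 1317 symbols with a RefSeq span under 184 nt, 0 had a value above 0 in any library, against 8 of 12 symbols of 184 to 300 nt and 21 of 32 of 301 to 500 nt. The 8 were the 5 members, Rmrp (the RNA of RNase MRP), Rprl1 and Rprl3. By the longest GENCODE M21 transcript the edge was less sharp, since 2 of 1317 symbols under 184 nt were above 0, and the Cajal body RNAs Scarna2 and Scarna10, listed at 0, are 414 and 325 nt long there but 61 and 71 nt in RefSeq.

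**Figure D1:**
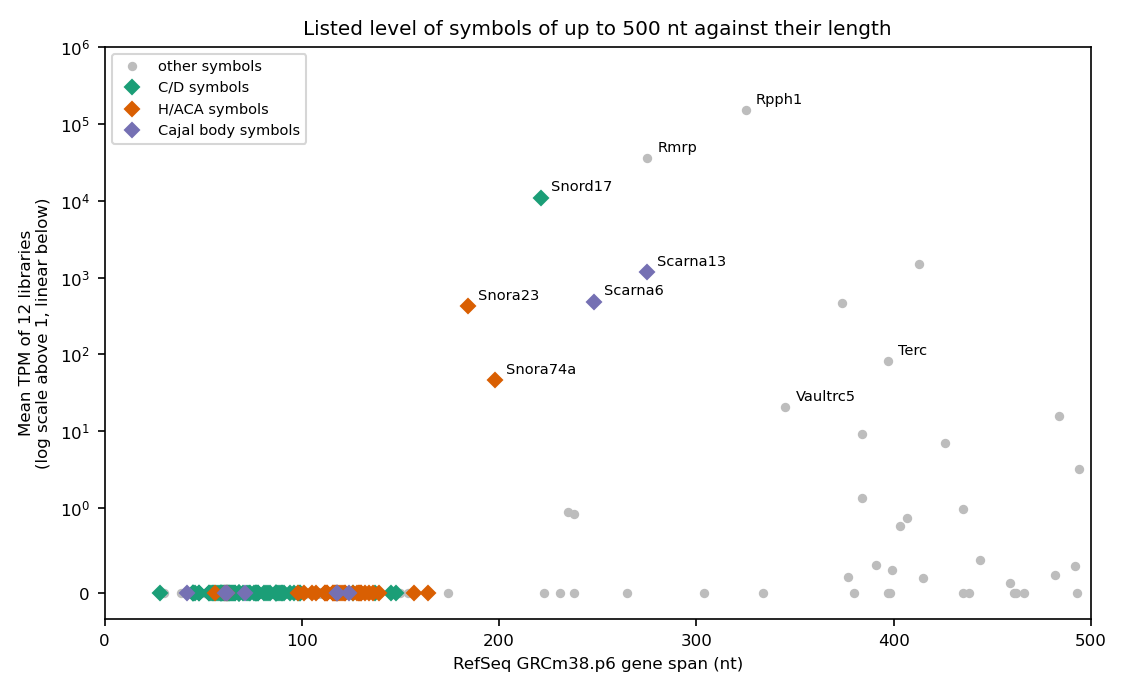
Mean TPM of the 12 libraries (vertical axis, log scale above 1 and linear below) against RefSeq gene span in nt (horizontal axis) for symbols of up to 500 nt, with the C/D, H/ACA and Cajal body symbols as coloured diamonds. The coloured symbols shorter than 184 nt sit at 0, and the 5 members sit between 45.9 TPM (Snora74a) and 10938 TPM (Snord17).

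Many of the symbols at 0 lie in abundant host genes. Of the 114 symbols at 0, 107 lie on the same strand within a longer annotated gene, and 100 have a host that is in the table. For 93 of them the host averaged at least 10 TPM, and for 55 at least 100 TPM. The 73 different hosts had a median of 123.5 TPM. Rpl13a, a ribosomal protein gene at 2287 TPM, holds Snord32a, Snord33, Snord34 and Snord35a, all listed at 0. Rpl23a, at 3998 TPM, holds Snord42a, Snord42b and Snord4a, and Snhg12, at 55.8 TPM, holds Snora16a, Snora44, Snora61 and Snord99, also at 0. In GENCODE M21, 52 of the symbols at 0 overlap an exon of a transcript of the host. Snora74a does so in 1 of 6 transcripts of the surrounding gene, and Snord17, Snora23, Scarna13 and Scarna6 do so in 0. Length and a listing at 0 went together. The part of length or of exon overlap in these zeros was not tested, so a value of 0 does not tell whether such an RNA was present in the cells.

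Snord17 had by far the highest TPM of the members. It averaged 10938 TPM over the 12 libraries and ranked 4 among all symbols. Scarna13 averaged 1172 TPM and ranked 96, Scarna6 averaged 488 TPM and ranked 230, and Snora23 averaged 428 TPM and ranked 259. Snora74a ranked 3369, and was above 0 in 6 of 12 libraries. Snora23 was above 0 in 11 libraries, and the other 3 members in all 12. The order of the levels, Snord17 above Scarna13 above Scarna6, held in each library, whereas Snora23 lay on either side of Scarna6. How the quantifier treated length in RNAs this short is not stated. The levels, ranks and ratios to longer genes are therefore given as listed, and may not be in proportion to the number of molecules.

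Some properties of the libraries bear on the comparisons. Rpph1, the RNA of RNase P, took 19.5 to 23.6% of TPM in Dfo XY, 15.3 to 20.3% in control XY and 6.96 to 7.20% in control XX. Rmrp took 4.53 to 5.06%, 3.49 to 4.64% and 2.09 to 2.13% in the same groups. For both RNAs the E11.5 libraries lay between control XX and control XY. A larger share of these RNAs leaves a smaller share for all other genes, and the main fit did not correct for this. Dfo XY replicates 1 and 2 held Xist, which coats the inactive X chromosome of XX cells, at 13.6 and 24.6 TPM, against at most 0.90 TPM in the other 6 XY libraries and 124.3 to 174.8 TPM in XX libraries. Fewer symbols were above 0 in XX libraries (14578 to 15456) than in XY libraries (16147 to 18931). All 6 markers of gonadal somatic cells were in the table, and their summed level was 486 to 559 TPM in Dfo XY, 651 to 789 TPM in control XY, 1263 to 1352 TPM in control XX, 761 to 877 TPM in E11.5 XY and 974 to 1156 TPM in E11.5 XX. The 4 germ cell markers summed to 0.26 to 3.51 TPM in Dfo XY, against 4.12 to 8.12 TPM in control XY, and to at most 18.05 TPM in any library. Among them Dazl was at 0 in both control XX libraries. The 3 erythroid markers summed to 818 to 2329 TPM in Dfo XY, 219 to 1747 TPM in control XY, 78.8 to 114.8 TPM in control XX, 1555 to 2168 TPM in E11.5 XY and 849 to 1232 TPM in E11.5 XX. The 3 macrophage markers summed to 37.8 to 55.2 TPM in Dfo XY, against 20.2 to 35.5 TPM in control XY, and the 3 markers of mesonephric epithelium to 21.6 to 26.9 TPM in Dfo XY, against 31.2 to 33.9 TPM in control XY, both without overlap. The 2 neural crest markers summed to 6.36 to 8.99 TPM in Dfo XY, 10.85 to 15.96 TPM in control XY and 5.16 to 5.25 TPM in control XX. The gonadal somatic, germ cell and neural crest sums were also lower in Dfo XY than in control XY without overlap. At E11.5 the 3 endothelial markers summed to 138 to 139 TPM in XY, against 189 to 238 TPM in XX, and the mesonephric markers to 39.5 to 43.6 TPM in XY, against 33.5 to 35.4 TPM in XX. The part of any of these in the results below was not tested.

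The first comparison asked what iron chelation changed in cultured XY gonadal cells. Scarna13, a Cajal body RNA, rose with Dfo, and the other 4 members did not pass the test. Differences were tested with limma on log2(TPM + 1) over 16133 genes, with p-values adjusted by Benjamini-Hochberg over all of them and a call at an adjusted p below 0.05. Counts at an unadjusted p under 0.05 are given below too. The share of all genes at that threshold was not computed, so these counts have no background to be read against. Of the 5 members 1 was called, in a comparison in which 15.5% of all genes tested were called and 4.98% were called higher. All 5 members passed the filter on low values. The median log2 change of the 5 members was 0.42, and that of all genes tested was -0.17. Of the genes called, 32.1% were higher with Dfo, a share that other scalings of the libraries moved to 59.8% (median-of-ratios), 52.0% (quantile), 49.3% (without the 50 most abundant symbols) and 48.2% (without short RNAs), and they moved the median of all genes to as much as -0.03. Scarna13 kept its call under these 4 scalings, at 0.55 to 0.61.

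Scarna13 stood at 1599.9, 1430.0 and 1594 TPM in the Dfo XY libraries, against 1225, 1221 and 933 TPM in the control XY libraries. The lowest Dfo library lay above the highest control library. The mean was 1541 ± 96.4 TPM with Dfo and 1126 ± 167 TPM in controls (SD, n = 3 each), a log2 change of 0.46 ± 0.14 (SE; limma, adjusted p = 0.0414). The call stood near the threshold. It held in 9 of 13 other settings and in 4 of the 12 fits that left out 1 library, and ended without any one of the 6 cultured XY libraries or of the 2 E11.5 XX libraries (adjusted p up to 0.135, without control XY replicate 3) and without both libraries that held Xist (0.51, adjusted p = 0.202, the highest over its alternatives, which began at 0.0193).

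Scarna6, the other Cajal body RNA, had 542, 579 and 755 TPM in the Dfo XY libraries, against 452, 429 and 511 TPM in the control XY libraries. Its groups did not overlap either, but the change of 0.42 ± 0.18 did not pass (limma, adjusted p = 0.147). It passed after median-of-ratios scaling (0.57, adjusted p = 0.0429) and without either control XX library (adjusted p = 0.0398 and 0.0401), in a range of 0.0398 to 0.365 over its alternatives. Together the 2 Cajal body RNAs took 0.217 ± 0.017% of TPM with Dfo and 0.159 ± 0.013% in controls (SD, n = 3 each). The ratio of Scarna13 to Scarna6 within a library was 2.51 ± 0.42 with Dfo and 2.46 ± 0.55 in controls, so the spread between libraries was larger than the difference.

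Snord17, the C/D RNA, had 10386, 11038 and 18491 TPM in the Dfo XY libraries, against 10492, 9970.4 and 12889 TPM in the control XY libraries. Replicate 3 was the highest library in both groups, and the groups overlapped. The log2 change was 0.22 ± 0.21 (limma, adjusted p = 0.528), and it was -0.05 without Dfo XY replicate 3.

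The H/ACA RNAs did not pass, and their libraries overlapped between the groups. The SE of each pools the spread of all 5 groups, and Snora23 had 1281 and 93.85 TPM in the E11.5 XY libraries. Snora23 had 434, 496 and 529 TPM in the Dfo XY libraries, against 460, 275 and 459 TPM in the control XY libraries, with a log2 change of 0.32 ± 1.29 (limma, adjusted p = 0.896). Snora74a had 24.0, 49.4 and 150.2 TPM in the Dfo XY libraries, against 75.2 TPM in control XY replicate 3 and 0 in control XY replicates 1 and 2. Values were thus listed in 3 of 3 Dfo libraries and 1 of 3 controls, and the log2 change of 3.76 ± 2.03 did not pass (limma, adjusted p = 0.242).

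**Figure D2:**
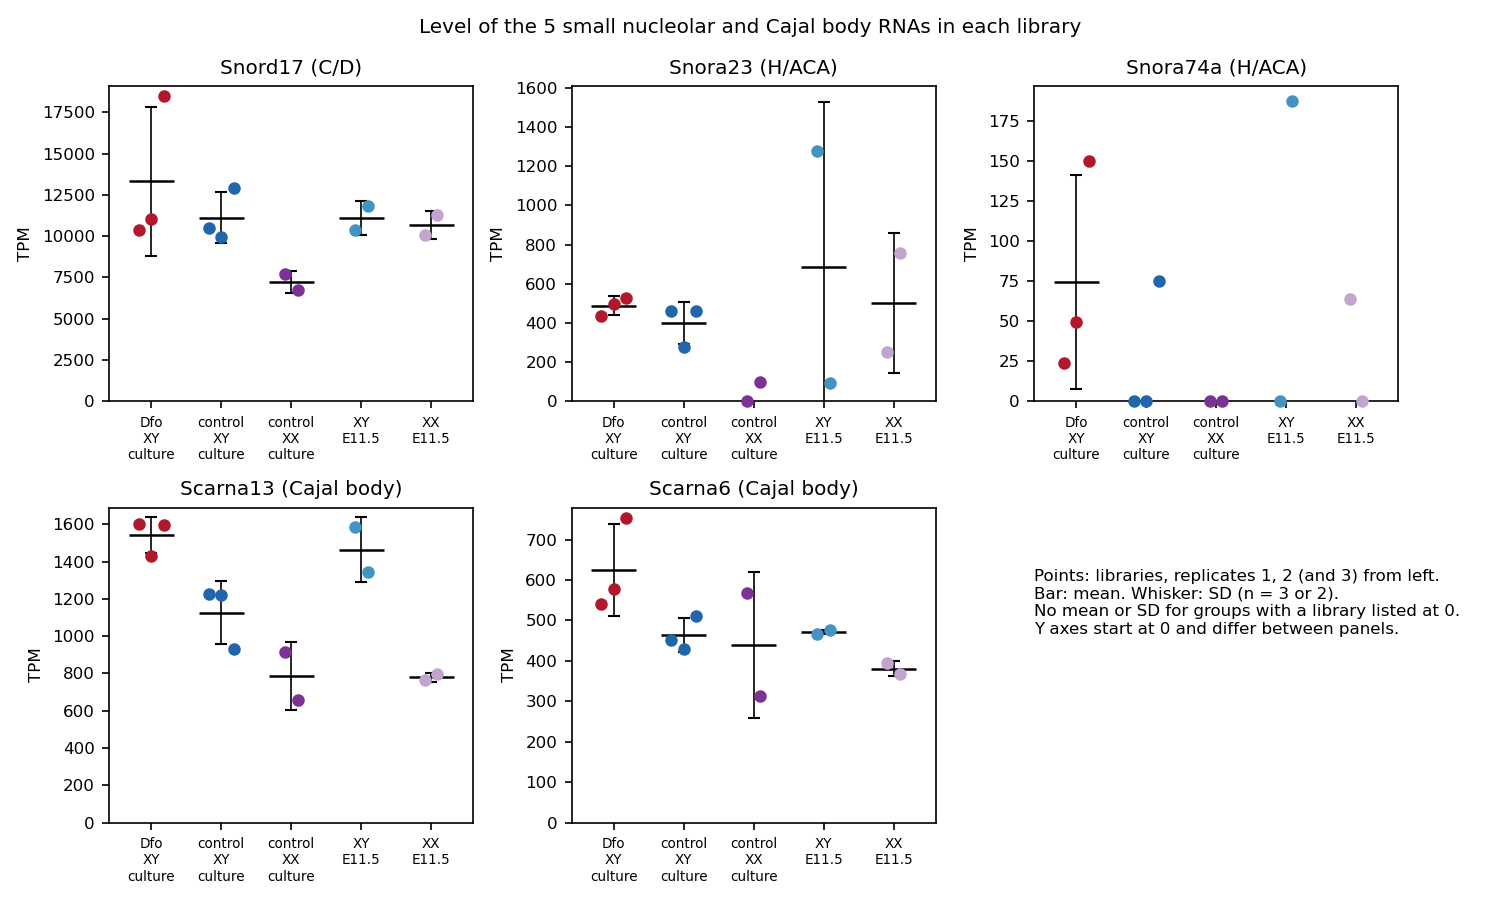
TPM of the 5 members in each library (points) by group, with the group mean (bar) and SD (whisker, n = 3 or 2) except where a library is listed at 0; vertical axes start at 0 and differ between panels. Scarna13 is higher in each Dfo XY library (1430.0 to 1599.9 TPM) than in the control XY libraries (933 to 1225 TPM). Snora23 spans 93.85 to 1281 TPM in E11.5 XY but 434 to 529 TPM in Dfo XY, and Snora74a spans 24.0 to 150.2 TPM in Dfo XY.

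Host transcripts showed whether members moved with the genes that hold them. In Dfo XY against control XY, 0 of the 5 hosts were called (limma), and 0 had an unadjusted p under 0.05. Snx5, which holds Snord17, changed by 0.06 ± 0.14 (limma, adjusted p = 0.832), Ipo7, which holds Snora23, by 0.18 ± 0.14 (0.436), and Atg16l1, which holds Scarna6, by 0.12 ± 0.12 (0.559). Snhg10, which holds the called Scarna13, had 3.5, 0.72 and 1.13 TPM in the Dfo XY libraries, against 2.1, 3.5 and 3.22 TPM in the control XY libraries, a log2 change of -0.61 ± 0.59 (limma, adjusted p = 0.539). In the 6 libraries of this comparison Snord17, Snora23, Scarna13 and Scarna6 were each listed above the host per length, while Snora74a was at 0 in control XY replicates 1 and 2, where Snhg4 stood at 8.24 and 5.32 TPM. The ratio of Snord17 to Snx5 was 108.0 ± 20.4 with Dfo and 95.6 ± 6.02 in controls, and that of Scarna6 to Atg16l1 was 23.6 ± 3.02 with Dfo and 19.3 ± 2.50 in controls (SD, n = 3 each).

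Among the host RNAs that make no protein, Snhg12 and Snhg1 rose with Dfo. Of 17 tested, 3 rose and 1 fell, against 4.98% of all genes tested called higher and 10.5% called lower, and their median of -0.14 was close to the -0.17 of all genes. Snhg12, whose span holds 4 of the symbols listed at 0, had 81.7, 88.4 and 100.3 TPM in the Dfo XY libraries, against 32.1, 35.4 and 40.7 TPM in the control XY libraries. It rose by 1.30 ± 0.16 (limma, adjusted p = 0.000213). Snhg1, the host of Snord22, had 169, 182 and 183 TPM in the Dfo XY libraries, against 78.4, 70.0 and 94.3 TPM in the control XY libraries, and rose by 1.14 ± 0.13 (limma, adjusted p = 0.000138). These 2 rises held in each of the 25 alternatives, with an adjusted p of at most 0.00794. Snhg5 rose by 0.51 ± 0.16 (limma, adjusted p = 0.0481) and Snhg11 fell by 1.12 ± 0.26 (limma, adjusted p = 0.0119). The call for Snhg5 held in 2 of the 12 fits without 1 library, and its libraries overlapped. The call for Snhg11 ended without control XY replicate 1 or 2 (limma, adjusted p = 0.0536 and 0.0547, in a range of 0.00623 to 0.104 over its alternatives). What small RNAs Snhg12 and Snhg1 yielded cannot be read, since these are listed at 0. In GENCODE M21, Snora16a, Snora44, Snora61 and Snord99 overlap an exon in 2, 2, 5 and 3 of the 10 Snhg12 transcripts. Snord22 does so in 5 of the 18 Snhg1 transcripts. The part of this overlap in the rises of Snhg12 and Snhg1 was not tested.

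The proteins that bind the 2 classes were not called with Dfo. Of the 4 C/D proteins, 0 were called and 2 had an unadjusted p under 0.05, a threshold without a computed share of all genes. Their median was -0.24. Fibrillarin (Fbl), the methyltransferase, had 118 ± 16.3 TPM with Dfo and 152 ± 32.8 TPM in controls (SD, n = 3 each), a log2 change of -0.35 ± 0.15 (limma, adjusted p = 0.144). The scaffold proteins Nop56 and Nop58 changed by -0.30 ± 0.12 and -0.02 ± 0.14, and Nhp2l1, which binds the RNA first, by -0.18 ± 0.11. Of the 4 H/ACA proteins, 0 were called and 1 had an unadjusted p under 0.05, with a median of -0.25. Dyskerin (Dkc1), the pseudouridine synthase, had 28.5 ± 8.15 TPM with Dfo and 39.5 ± 10.9 TPM in controls (SD, n = 3 each), a log2 change of -0.46 ± 0.21 (limma, adjusted p = 0.162). Its partners Nhp2, Nop10 and Gar1 changed by -0.29 ± 0.15, -0.22 ± 0.17 and -0.01 ± 0.31. With the replicate number as a block, Fbl, Nop56 and Dkc1 passed at the same changes (limma, adjusted p = 0.0468, 0.0380 and 0.0278), and the signs of Nop58 and Gar1 changed with the scaling.

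Among 21 genes of particle assembly and Cajal bodies, 1 rose and 2 fell with Dfo. A count of 3 of 21 is near the 15.5% called among all genes, and the median of -0.17 was that of all genes. Wrap53, which brings RNAs with a Cajal body box to the Cajal body, had 7.38, 7.37 and 10.78 TPM in the Dfo XY libraries, against 12.7, 15.6 and 15.8 TPM in the control XY libraries. It fell by 0.74 ± 0.22 (limma, adjusted p = 0.0407). Ruvbl1, an ATPase of C/D particle assembly, fell by 0.59 ± 0.13 (limma, adjusted p = 0.0110), and Naf1, an assembly factor that Gar1 replaces in H/ACA particles, rose by 0.45 ± 0.14 (limma, adjusted p = 0.0478, and 0.0693 with the replicate block, in a range of 0.0133 to 0.458 over its alternatives). Of 31 genes of ribosomal RNA synthesis and early processing, 2 fell, no larger a share than the 10.5% of all genes called lower, with a median of -0.05. These were Ubtf, a factor of RNA polymerase I, by 0.52 ± 0.13 (limma, adjusted p = 0.0194), and Utp6, a protein of the small-subunit processome, by 0.41 ± 0.13 (limma, adjusted p = 0.0467). These 5 calls ended without both libraries that held Xist (limma, adjusted p = 0.309 to 0.540) and with replicates 1 and 2 averaged (0.0870 to 0.288). In the 12 fits without 1 library, the calls held in 11 for Ruvbl1 (not without Dfo XY replicate 2), 9 for Ubtf, 5 for Wrap53, 4 for Naf1 and 0 for Utp6. The call of Wrap53 ended under each of the 4 other scalings (-0.67 to -0.57; limma, adjusted p = 0.0583 to 0.0843, in a range of 0.0175 to 0.540 over its alternatives), and that of Utp6 under all but quantile normalization (-0.32 to -0.26; limma, adjusted p = 0.0693 to 0.116, in a range of 0.0309 to 0.361 over its alternatives). Under these scalings, 2 of the 21 assembly genes were higher and 1 lower, and of the 31 ribosomal RNA genes 1 or 2 were higher and 1 or 2 lower.

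The second comparison was between the sexes in control culture. Scarna13 and Snora23 were higher in XY, so 2 of 5 members were called, against 25.2% of all genes tested in either direction and 2.97% called higher in XY. The median of the members was 0.61 and that of all genes -0.22. The share of called genes that were higher in XY, 11.8%, became 34.9% to 51.4% under the 4 other scalings, and the median of all genes -0.03 to 0.07. Scarna13 had 1225, 1221 and 933 TPM in control XY, against 916 and 657 TPM in control XX. The lowest XY library lay just above the highest XX library, and the log2 change was 0.53 ± 0.15 (limma, adjusted p = 0.0266). It was 0.29 without control XX replicate 2, where the call ended. The call also ended without control XY replicate 1 or 2 (limma, adjusted p = 0.0927 and 0.0923) and after quantile normalization (0.57, adjusted p = 0.0763). It held in 9 of 13 other settings, and not with only the groups compared (0.0605), without the trend (0.0696) or with replicates averaged (0.113).

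Snora23 had 460, 275 and 459 TPM in control XY, against 98.4 TPM in control XX replicate 2 and 0 in control XX replicate 1. The groups did not overlap, and the log2 change was 5.28 ± 1.44 (limma, adjusted p = 0.0189). That size rests on the library at 0, since without it the change was 1.97 (limma, adjusted p = 0.213, the highest over the alternatives, which began at 0.00403). The call also ended without control XY replicate 1 (adjusted p = 0.0551) and after quantile normalization (adjusted p = 0.0537). Snora74a had 75.2 TPM in 1 of 3 control XY libraries, and both control XX libraries were listed at 0.

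Snord17 had 10492, 9970.4 and 12889 TPM in control XY, against 7698 and 6764 TPM in control XX. The groups did not overlap, but the change of 0.61 ± 0.23 missed the threshold (limma, adjusted p = 0.0689). It passed in 6 of 13 other settings, among them 4 other scalings (0.72 to 0.95), with adjusted p between 0.0122 and 0.265 over its alternatives. Scarna6 had 452, 429 and 511 TPM in control XY, against 567 and 312 TPM in control XX, so the XX libraries lay on both sides of the XY libraries (0.14 ± 0.20; limma, adjusted p = 0.648).

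The hosts of Snord17 and Snora23 differed the other way between the sexes. Snx5 had 103, 105 and 144 TPM in control XY, against 161 and 159 TPM in control XX, and was lower in XY by 0.46 ± 0.16 on the log2 scale (limma, adjusted p = 0.0485). Ipo7 had 96.6, 83.5 and 112.0 TPM in control XY, against 130.3 and 149.9 TPM in control XX, and was lower in XY by 0.53 ± 0.16 (limma, adjusted p = 0.0280). Both host calls ended under each of the 4 other scalings (-0.29 to -0.04) and held in 3 (Snx5) and 8 (Ipo7) of the 12 fits without 1 library. A ratio within a library is the same under any scaling by 1 factor per library, though not after quantile normalization. The ratio of Snord17 to Snx5 was 101.8, 95.1 and 89.8 in control XY, against 47.9 and 42.5 in control XX. That of Snora23 to Ipo7 was 4.76, 3.29 and 4.098 in control XY, against 0 and 0.657 in control XX. Both ratios were higher in each XY library than in each XX library. Set against RNAs that are not cut from introns, Snord17 was not higher in XY. Its ratio to Rpph1, the RNA of RNase P, was 0.0543, 0.0491 and 0.0843 in control XY, against 0.1069 and 0.0971 in control XX, lower in each XY library. Its ratio to Rmrp was 0.274 ± 0.083 in control XY (SD, n = 3) and 0.343 ± 0.036 in control XX (SD, n = 2), with overlap.

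**Figure D3:**
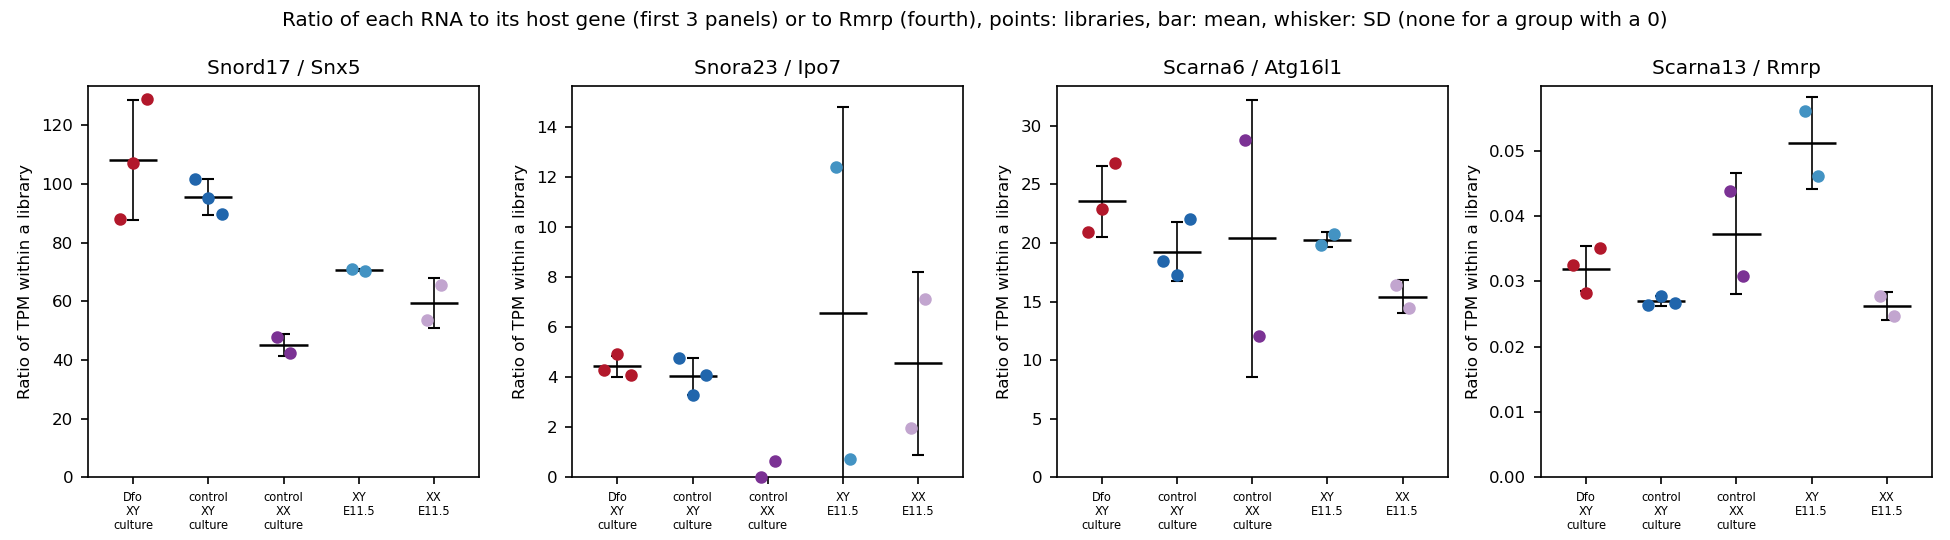
Ratio of TPM within a library of Snord17, Snora23 and Scarna6 to the host gene of each, and of Scarna13 to Rmrp, by group (points are libraries, bars means, whiskers SD, n = 3 or 2, none where a library is at 0). Snord17 to Snx5 sits between 88.1 and 129.0 in the cultured XY libraries and between 42.5 and 47.9 in cultured XX.

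Other short RNAs that are not cut from introns were also higher in XY culture. Of 12 in the table, 6 were listed at 0 in all 12 libraries and 4 were tested. All 4 (Rpph1, Rmrp, Terc and Vaultrc5) were called higher in control XY than in control XX, with a median of 1.17, and 0 passed with Dfo against control XY (limma), where 0 had an unadjusted p under 0.05 and the median was 0.28. Rmrp had 46449, 43849 and 34870 TPM in control XY, against 20899 and 21317 TPM in control XX, a log2 change of 0.97 ± 0.21 (limma, adjusted p = 0.00643). Set against Rmrp within a library, Scarna13 was lower in each control XY library than in each control XX library. The ratio was 0.0264, 0.0278 and 0.0268 in control XY (mean 0.0270 ± 0.0008, SD, n = 3). In control XX it was 0.0438 and 0.0308 (mean 0.0373 ± 0.0092, SD, n = 2). Of the protein lists, 0 of 4 C/D proteins and 0 of 4 H/ACA proteins were called between control XY and control XX (limma), and 1 of each had an unadjusted p under 0.05. Of the assembly genes 6 of 21, and of the ribosomal RNA genes 12 of 31, were lower in XY and 0 higher, in a comparison in which 22.2% of all genes tested were lower. Under the 4 other scalings, 0 of the assembly genes and 0 to 3 of the ribosomal RNA genes were lower, and the medians of the C/D and H/ACA proteins changed sign (-0.22 and -0.21, against 0.02 to 0.18 under these scalings). The 4 short RNAs were called higher under 3 of these scalings and 2 of them after quantile normalization.

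The third comparison set Dfo XY against control XX, and shares its libraries with both comparisons above. Scarna13, Snord17, Snora23 and Scarna6 were called higher in Dfo XY, 4 of 5 members, against 38.6% of all genes tested in either direction and 4.79% called higher. The median of the members was 0.99 and that of all genes -0.33. Of the called genes, 12.4% were higher in Dfo XY, and 35.5% to 55.8% under the 4 other scalings. Scarna13 differed by 0.99 ± 0.15 (limma, adjusted p = 0.000412), with 1430.0 to 1599.9 TPM in Dfo XY and 657 to 916 TPM in control XX, and this call held in each of the 25 alternatives (adjusted p of at most 0.0101). Snord17 differed by 0.83 ± 0.23 (limma, adjusted p = 0.0126), with 10386 to 18491 TPM in Dfo XY and 6764 to 7698 TPM in control XX. Its call ended without control XX replicate 2 (0.74, adjusted p = 0.0898, the highest over its alternatives, which began at 0.00133). Snora23 differed by 5.61 ± 1.44 (limma, adjusted p = 0.00832), and by 2.29 without the control XX library at 0. Its call held in 12 of 13 other settings and in 11 of 12 fits without 1 library. It ended without that control XX library and without both Dfo XY libraries that held Xist. Scarna6 differed by 0.55 ± 0.20 (limma, adjusted p = 0.0471), but its libraries overlapped, at 542 to 755 TPM in Dfo XY and 312 to 567 TPM in control XX. Its call held in 2 of the 12 fits without 1 library and in 8 of 13 other settings. The call ended with the replicate block (0.41, limma, adjusted p = 0.102), only the groups compared (0.0968), no trend (0.101), replicates averaged (0.0666) and no filter (0.0785). Snora74a, at 24.0 to 150.2 TPM in Dfo XY, was listed at 0 in both control XX libraries (limma, adjusted p = 0.0584).

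**Figure D4:**
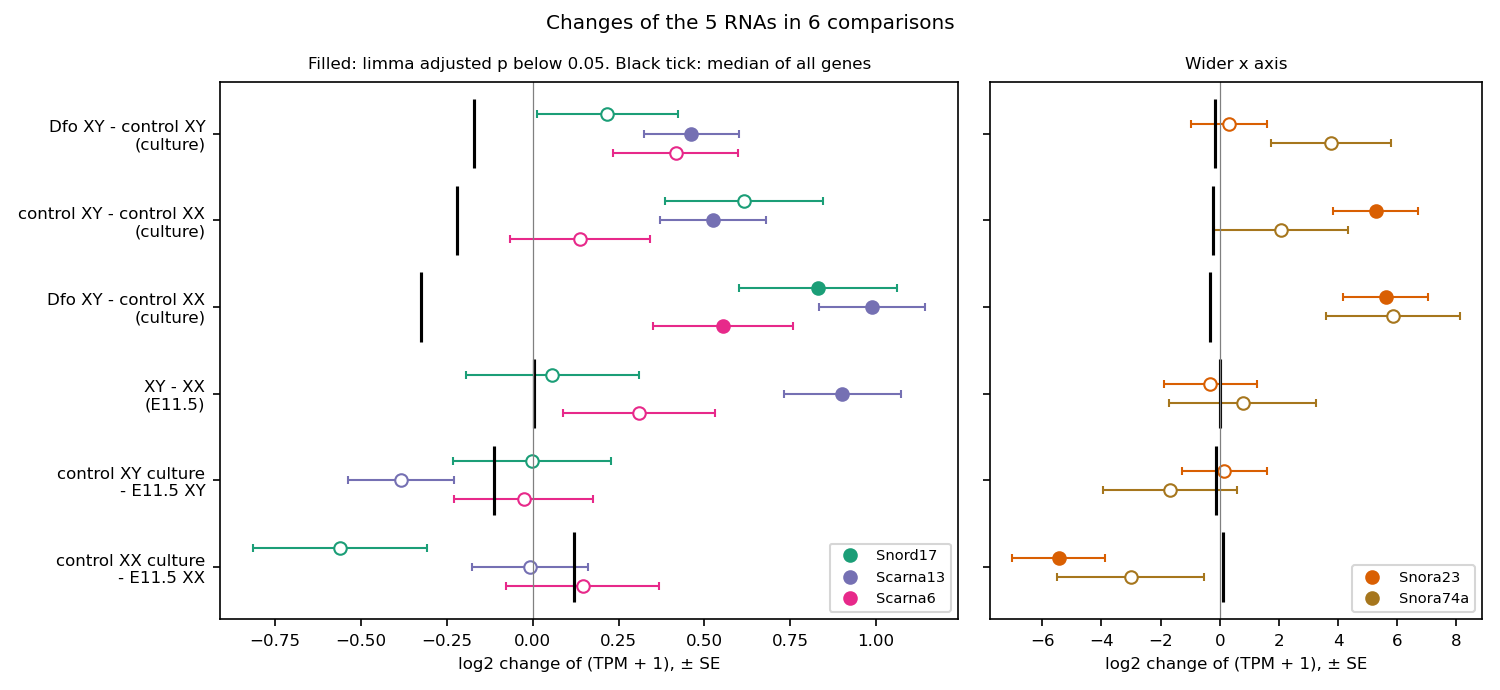
Log2 change of TPM + 1 with its SE for the 5 members (colours) in 6 comparisons, on a wider axis for the H/ACA RNAs in the right panel; filled points have a limma adjusted p below 0.05 and black ticks mark the median of all genes. Scarna13 is filled in the 4 comparisons of Dfo XY or of the sexes, between 0.46 and 0.99, and open in the 2 comparisons of culture with E11.5.

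The fourth comparison was between the sexes at E11.5. Scarna13 was again higher in XY, and 1 of 5 members was called, against 2.29% of all genes tested in either direction, 1.09% called higher and 1.2% called lower. Scarna13 had 1586 and 1342 TPM in E11.5 XY, against 763 and 798 TPM in E11.5 XX. The groups lay well apart, at 1464 ± 173 TPM in XY and 780.4 ± 24.4 TPM in XX (SD, n = 2 each), a log2 change of 0.90 ± 0.17 (limma, adjusted p = 0.0238). The call ended without E11.5 XY replicate 1 or either E11.5 XX library (adjusted p = 0.0849, 0.146 and 0.0661), with values of 0.78 to 1.02 over the fits without 1 library. Its ratios showed the same order, with 3.39 and 2.82 to Scarna6 in E11.5 XY, against 1.94 and 2.17 in E11.5 XX, and 0.0562 and 0.0462 to Rmrp in E11.5 XY, against 0.0278 and 0.0247 in E11.5 XX. Its host Snhg10 had 0.98 and 10.4 TPM in E11.5 XY, against 0 and 1.40 TPM in E11.5 XX (1.62 ± 0.73; limma, adjusted p = 0.246).

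The other members did not pass at E11.5. Snord17 had 10384 and 11809 TPM in E11.5 XY, against 10057 and 11274 TPM in E11.5 XX, with a change of 0.06 ± 0.25 (limma, adjusted p = 0.932). Scarna6 had 468 and 475 TPM in E11.5 XY, against 394 and 367 TPM in E11.5 XX, without overlap (0.31 ± 0.22; limma, adjusted p = 0.468). Snora23 had 1281 and 93.8 TPM in E11.5 XY, against 251 and 755 TPM in E11.5 XX, so each group held a high and a low library. Snora74a was listed at 0 in 1 library of each sex, with 187.7 TPM in the other XY library and 63.8 TPM in the other XX library. The other short RNAs and the C/D and H/ACA proteins had 0 called members at E11.5 (limma), and 0 of them had an unadjusted p under 0.05. Of the 17 host RNAs without a protein, 1 was called higher in XY, against 1.09% of all genes tested. Also, 8 had an unadjusted p under 0.05, but the share of all genes at that threshold was not computed. Their median was 0.64, against 0.003 for all genes, and no test was run on that median. The called host RNA, Snhg3, had 33.95 and 34.3 TPM in E11.5 XY, against 7.49 and 4.01 TPM in E11.5 XX (2.43 ± 0.27; limma, adjusted p = 0.000654). Of the 31 ribosomal RNA genes 1 was lower in XY, Imp4, a protein of the small-subunit processome, with 24.56 and 24.03 TPM in E11.5 XY, against 38.85 and 39.14 TPM in E11.5 XX (-0.66 ± 0.14; limma, adjusted p = 0.0330). Both genes were named after their values were seen, and these counts of 1 were the same under the 4 other scalings.

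Whether the sex difference in culture differed from that at E11.5 was tested as an interaction. Of the 5 members 0 were called (limma) and 1 had an unadjusted p under 0.05, against 1.33% of all genes tested called. Of those, 14.4% were above 0, and 48.8% to 61.8% under the 4 other scalings. For Scarna13, the sex difference was 0.53 in culture and 0.90 at E11.5, and their difference was -0.38 ± 0.23 (limma, adjusted p = 0.370). For Snord17, it was 0.61 in culture and 0.06 at E11.5, and their difference was 0.56 ± 0.34 (limma, adjusted p = 0.370). For Snora23, the difference was 5.61 ± 2.13 (limma, adjusted p = 0.165, and 0.0221 without control XX replicate 2, in a range of 0.0221 to 0.393 over its alternatives).

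Control culture was last compared with E11.5 within each sex. In XY, 0 of 5 members were called (limma) and 1 had an unadjusted p under 0.05, against 5.66% of all genes tested called, 2.62% higher and 3.04% lower. Of the called genes, 46.2% were higher in culture, and 58.7% to 69.2% under the 4 other scalings. That member was Scarna13, with 1225, 1221 and 933 TPM in control XY culture, against 1586 and 1342 TPM at E11.5 (-0.38 ± 0.15; limma, adjusted p = 0.158). Snord17 and Scarna6 changed by -0.0034 and -0.03 in XY, less than the SE of each. In XX, 1 of 5 members was called, against 9.07% of all genes tested in either direction, 1.71% called lower and 7.36% called higher. Of the called genes, 81.1% were higher in culture, and 55.6% to 76.1% under the 4 other scalings. Snora23 was lower in control XX culture, at 0 and 98.4 TPM, against 251 and 755 TPM at E11.5 (-5.45 ± 1.57; limma, adjusted p = 0.0494). That call ended in 10 of 13 other settings and 9 of 12 fits without 1 library, and the change was -2.13 without the library at 0 (adjusted p = 0.300, the highest over the alternatives, which began at 0.00133). Snord17 had 7698 and 6764 TPM in control XX culture, against 10057 and 11274 TPM at E11.5, without overlap, and did not pass (-0.56 ± 0.25; limma, adjusted p = 0.192). Scarna13 had 916 and 657 TPM in control XX culture, against 763 and 798 TPM at E11.5 (-0.01 ± 0.17; limma, adjusted p = 1).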

How the data were processed

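The submitters' processing notes name the mm10 genome, the aligner STAR 2.7.10b, the quantifier RSEM and R 4.1.2. No version of RSEM, no annotation and no filter was found in the labels or files. The deposited values are TPM, 1 file per library, as made by the authors. TPM keeps no depth, so the depth of each library is unknown and no counting interval was computed. Per the labels, total RNA of NR5A1(+) cells was made into libraries with the SMART-Seq Stranded Kit.

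Members were matched by symbol, and lengths, hosts and sequences came from GENCODE M21 and RefSeq GRCm38.p6. Values were tested as log2(TPM + 1) in 1 fit of all 12 libraries with limma 3.58.1 in R 4.3.3, with 1 coefficient per group and a variance trend. The fit kept the 16133 genes that reached 1 TPM in 2 or more libraries, and the Benjamini-Hochberg adjustment ran over all of them in each of 7 contrasts. On this scale the change of low genes without a library at 0 is understated. A library at 0 can instead enlarge the change. Without the control XX library at 0, the change of Snora23 between control XY and control XX was smaller, at 1.97. No fold was written in the text against a group at 0, but the plot of log2 changes by comparison includes Snora74a against control XX. The fit was tested on simulated data. Alternatives were pseudocounts of 0.1 and 5, no filter, 4 other scalings (median-of-ratios, quantile, and TPM rescaled without the 50 most abundant symbols or without short non-coding RNAs), only the groups compared, no trend, a replicate block, replicates 1 and 2 of the cultured XY groups averaged, Dfo XY without both libraries that held Xist, a mean of 5 TPM for members (which changed no value), and each library left out in turn.

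The labels do not pair the replicates of Dfo XY and control XY. Between libraries of the same number, deviations from the group means correlated at 0.25, 0.13 and 0.35 over 10868 genes, each above 0.1. Dfo XY replicate 1 and control XY replicate 2 also correlated at 0.18. Dfo XY replicate 2 correlated more with control XY replicate 1 (0.14) than with its own number (0.13). Each replicate 3 correlated at -0.30 to -0.19 with replicates 1 and 2 of the other group. The values thus set replicate 3 apart from replicates 1 and 2, and do not pair replicates 1 and 2 by number. The main fit used no pairing, and the replicate block was an alternative. The genes named were, for each class, called members without overlap by size of change (up to 4 per direction with Dfo, 2 elsewhere), the 3 most abundant members, the core proteins, Rpph1, Rmrp and up to 4 called genes of each other list. Terc, Vaultrc5 and the hosts were added. Members and lists were chosen with earlier results of these data known.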

Additional observations from a re-analysis of the deposited data

How the results depend on the processing

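The number of called members moved with several settings. With Dfo against control XY it was 1, and 0 with no filter, without the trend, with replicates averaged or without both libraries that held Xist, 2 after median-of-ratios scaling, and 0 to 2 without 1 library. Between control XY and control XX it was 2, and 3 after median-of-ratios scaling, in both rescalings and without both libraries that held Xist, 1 after quantile normalization (Snord17, with Scarna13 and Snora23 no longer called), 0 without the trend or with replicates averaged, and 0 to 3 without 1 library. Between Dfo XY and control XX, Scarna6 lost its call with only the groups compared, without the trend or with replicates averaged. The number of called members there was 4, and 5 with a pseudocount of 0.1, 2 with no filter and 2 to 4 without 1 library. Between the sexes at E11.5 it was 1, and 0 with only the groups compared, with replicates averaged or without both libraries that held Xist, and 0 to 1 without 1 library. Between control XX culture and E11.5 XX it was 1, and 0 with a pseudocount of 0.1, no filter, median-of-ratios or quantile scaling, both rescalings, only the groups compared, no trend, replicates averaged or without both libraries that held Xist, and 0 to 1 without 1 library. Between control XY culture and E11.5 XY it was 0 in each alternative. The interaction count was 0, and 0 to 1 without 1 library. With the replicate block the counts were 1, 2, 3, 1, 0 and 1 for the 6 comparisons of groups, and the block ended the calls of Scarna6 (0.41) and Naf1 (0.45), brought in Fbl, Nop56 and Dkc1, and changed no other of the gene calls that were refitted with it, which were those of the members, the genes named with Dfo, and Snx5 and Ipo7 between control XY and control XX. Signs turned with Dfo for Nop58 (0.13 median-of-ratios, 0.012 quantile, 0.079 without the 50 most abundant symbols, 0.075 without short RNAs, 0.0015 averaged, 0.30 without both libraries that held Xist, -0.17 to 0.13 without 1 library), for Gar1 (0.13, 0.11, 0.080 and 0.076 in the same scalings, -0.18 to 0.16 without 1 library) and for Snord17 (-0.045 to 0.37 without 1 library). The cause of these shifts was not tested. With 2 or 3 libraries a group and depth unknown, values near 0 such as those of Snora74a cannot be given a detection limit.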
